A study of Mus musculus with 15 samples.

Results

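The 50 genes described here code for proteins of the G2 phase, mitosis and cytokinesis, and were measured in 15 bulk RNA libraries of whole mouse ileum. They were chosen by gene symbol, with no measured value in the rule but with earlier results of these data known. All 50 were among the 25329 genes of the table. WT mice carried floxed Tak1 alleles (Tak1f/f), with no deletion of TAK1 named. HO mice (TAK1 IEC-KO) lacked TAK1, a kinase of cell survival and inflammatory signalling encoded by Map3k7, in intestinal epithelial cells. DHO mice had the same deletion and were also homozygous for Ripk1 D138N, an allele whose RIPK1 protein has no kinase activity. Each genotype had 5 libraries. The treatment text names 3 daily intraperitoneal doses of tamoxifen at 80 mg/kg for the mice, and the tissue was taken 3 days post induction. The Cre driver, sex and age are not given in the sources used here. The comparisons ask how loss of epithelial TAK1 changed the ileum, and how far the kinase-dead Ripk1 allele altered that change.

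A cell enters mitosis when CDK1, bound to cyclin A or cyclin B, becomes active. Aurora and Polo-like kinases, the kinetochores and the spindle then align the chromosomes. The anaphase-promoting complex with CDC20 starts their separation by ending the inhibition of separase by securin. Most of these genes are transcribed late in the cell cycle, through CHR elements bound by the DREAM and B-MYB-MuvB-FOXM1 complexes and through CCAAT boxes bound by NF-Y. In the small intestine, cell division in the epithelium is a feature of the crypts, while the cells of the villi no longer divide.

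Every promoter sequence shown here is from RefSeq, on the GRCm38.p6 build. Windows of 250 bases before to 50 bases after the annotated start were at hand for 42 of the 50 genes, in 44 windows. No window was held for Ccna2, Foxm1, Aurkb, Incenp, Tpx2, Spc24, Kif20a and Smc4. The 120 bases just before the start are printed, 5′ to 3′, for 6 genes that results below turn on, because they show how these motifs lie close to the start. Capitals mark TTTGAA or TTTAAA, the letters of CHR elements, and CCAAT, the NF-Y box, each on either strand, so that TTCAAA and ATTGG are their reverse complements. The stretches are chr10:69352913-69353032 on the minus strand for Cdk1, chr4:118437344-118437463 on the minus strand for Cdc20 and chr2:164769809-164769928 on the plus strand for Ube2c. The others are chr19:37376262-37376381 on the plus strand for Kif11, chr9:70421555-70421674 on the minus strand for Ccnb2 and chr13:100786487-100786606 on the minus strand for Ccnb1.
Cdk1: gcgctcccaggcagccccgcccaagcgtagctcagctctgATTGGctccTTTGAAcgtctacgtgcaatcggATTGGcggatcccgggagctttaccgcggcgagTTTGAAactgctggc
Cdc20: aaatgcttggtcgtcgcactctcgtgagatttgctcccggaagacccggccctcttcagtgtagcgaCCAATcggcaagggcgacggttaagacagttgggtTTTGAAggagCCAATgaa
Ube2c: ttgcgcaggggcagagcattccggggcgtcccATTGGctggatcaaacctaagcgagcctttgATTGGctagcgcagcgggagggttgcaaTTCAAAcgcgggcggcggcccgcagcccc
Kif11: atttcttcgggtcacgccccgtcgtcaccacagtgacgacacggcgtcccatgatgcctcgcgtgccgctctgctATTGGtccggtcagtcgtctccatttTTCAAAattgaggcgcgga
Ccnb2: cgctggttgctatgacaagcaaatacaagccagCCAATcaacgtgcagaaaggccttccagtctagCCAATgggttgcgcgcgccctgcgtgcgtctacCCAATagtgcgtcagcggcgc
Ccnb1: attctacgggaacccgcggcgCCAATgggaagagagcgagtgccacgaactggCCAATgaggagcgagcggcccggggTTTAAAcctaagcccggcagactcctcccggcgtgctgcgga
The Cdk1, Cdc20, Ube2c and Kif11 stretches each held TTTGAA together with CCAAT. In Ccnb1 the CHR letters were TTTAAA, and Ccnb2 had 3 CCAAT boxes here while its TTTGAA matches lay outside the stretch.

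Levels are in FPKM, that is, reads divided by gene length and by library depth, a unit read from the values. Values of a group are listed in the order of its replicates, 1 to 5. Depth was even, at 38724618 to 40589889 reads per library. Map3k7 lay between 9.39 and 11.2 FPKM in WT, between 6.88 and 9.42 in HO and between 8.31 and 10.1 in DHO, with a change in HO of -0.24 (limma adjusted p = 0.0419), or 0.051 under median-of-ratios scaling. A gene-level value from whole tissue, where other cells keep the gene, checks the HO and DHO labels only weakly. Differences are log2 changes of FPKM + 1 from a limma fit over all 15 libraries and 11332 genes, with a gene called where its p, after Benjamini-Hochberg adjustment over those genes, was under 0.05. Labels do not say that each library is a separate animal, so the p-values measure the spread between these libraries. The HO libraries stood lower than the others over the whole table: over all genes tested the median was -0.25 in HO against WT, 0.25 in DHO against HO and 0.00 in DHO against WT. Proximal small intestine transcripts marked HO 1, DHO 3 and DHO 4, where Gata4 was at 27.3, 19.0 and 18.0 FPKM, against at most 0.53 elsewhere. B cell transcripts marked HO 2, HO 4 and DHO 1, where Ms4a1 was at 8.80, 15.5 and 7.04 FPKM, against at most 0.29 elsewhere. Fabp6, a bile acid carrier that marks the ileum, had 1 read in HO 1, so that gene did not bear out the tissue label there.

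In HO against WT, 48 of the 49 genes tested fell and none rose, where 42.9% of all genes tested were called lower. After scaling by median-of-ratios factors, which takes out a shift of the whole table, 48 again fell, where 23.3% of all genes were called lower. The median change was -1.63, from -2.73 in Cdca3 to -0.21 in Pttg1, against -0.25 over all genes. The HO mean of the 50 genes was at a median of 17.0% of the WT mean, and 43 were under 25%. In 49 of the 50 genes every HO library lay below every WT library, a separation found in 29.8% of all genes tested, and Pttg1 was the exception. The remaining gene, Espl1, did not reach 1 FPKM in enough libraries to be tested. Of the genes tested, 16 were under 1 FPKM in every HO library and passed that filter through WT and DHO, so their place among the genes tested itself called for a difference. With no filter, 49 of 50 were called lower, where 4986 of all 24836 genes were called lower.

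In DHO against HO, 48 of 49 rose, where 42.8% of all genes tested were called higher (24.7% under median-of-ratios scaling, with 48 members again). The median change was 1.52 against 0.25 over all genes, and 49 of 50 had every DHO library above every HO library, against 27.9% of all genes tested. In DHO against WT none of 49 was called, beside 27 of 11332 genes, or 0.238%. The median was -0.15, and in all 50 genes the DHO and WT libraries overlapped; DHO was wholly below WT in 1.96% of all genes tested and wholly above in 2.44%. The 3 comparisons share libraries, so their values stand side by side and are not independent. Whole tissue cannot tell apart fewer dividing cells from less RNA of these genes per cell.

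**Figure D1:**
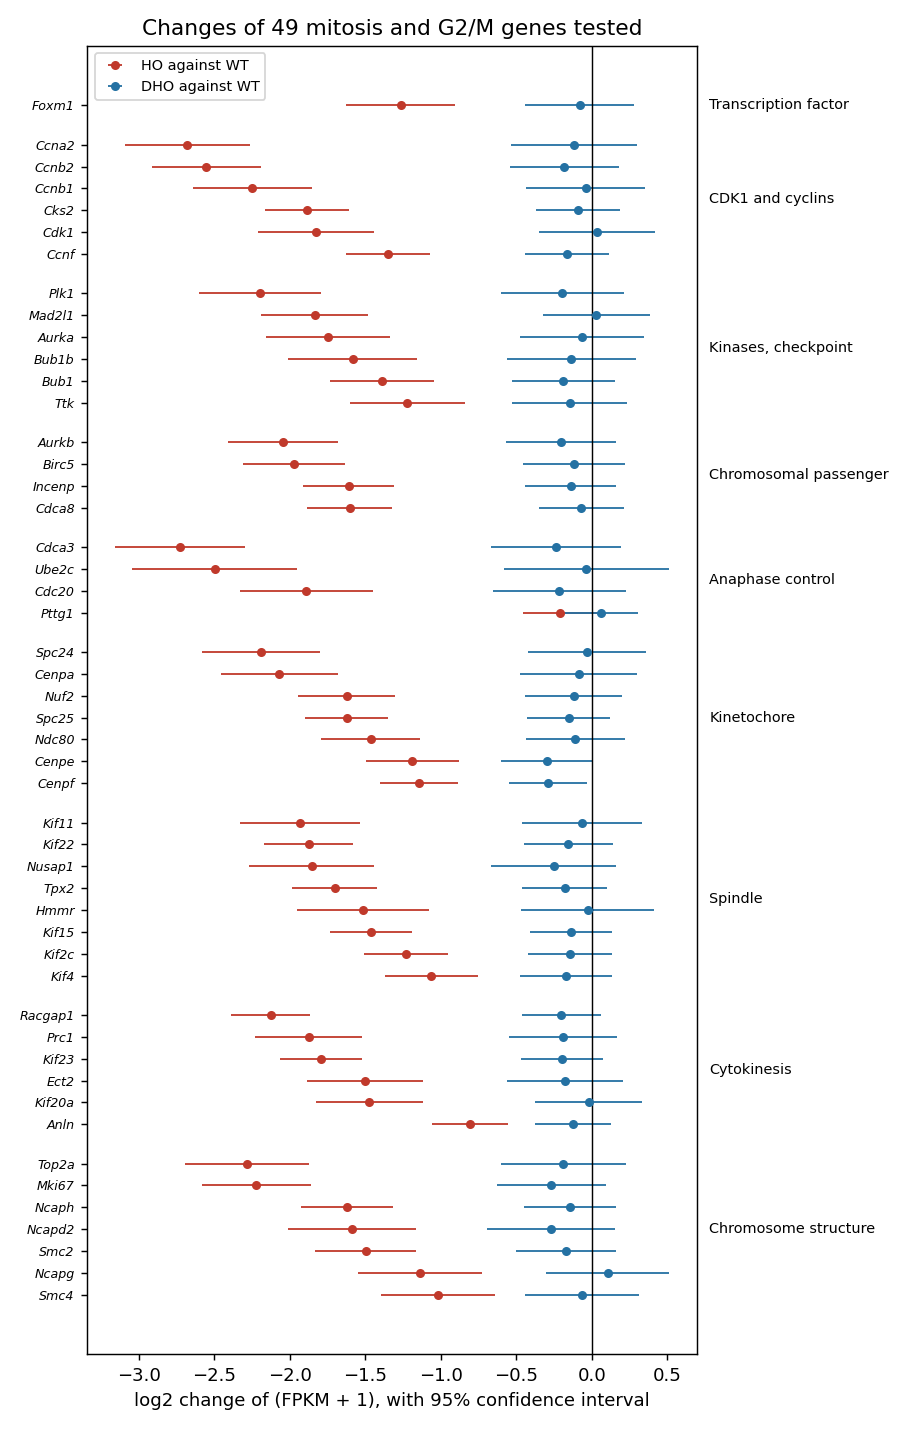
Log2 change of FPKM + 1 with its 95% confidence interval for the 49 genes tested, grouped by role, in HO against WT (red) and DHO against WT (blue). The HO changes run from -2.73 in Cdca3 to -0.21 in Pttg1, while the DHO changes lie between -0.30 and 0.10.

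CDK1 and its cyclins fell in HO as a group, 6 of 6, with a median change of -2.07. Cdk1 (chr10:69335146-69352912), the kinase that drives entry into mitosis, had 7.27, 6.81, 10.3, 8.55 and 5.78 FPKM in the WT libraries, 1.65, 0.907, 2.38, 1.31 and 1.13 in HO, and 7.51, 5.89, 6.78, 8.78 and 10.9 in DHO. Each HO library was below each library of the other groups, while WT and DHO overlapped over most of their range. The change in HO was -1.83 (SE 0.18, limma adjusted p = 3.42e-06), and DHO stood at 103% of the WT mean. Ccnb1 (chr13:100778739-100786486), cyclin B1, had 9.95, 9.57, 14.2, 11.6 and 8.49 FPKM in the WT libraries, 1.41, 0.802, 2.10, 1.92 and 1.20 in HO, and 9.59, 7.67, 9.81, 9.91 and 15.8 in DHO. HO was again apart from both other groups, with a change of -2.25 (SE 0.19, limma adjusted p = 9.71e-07), and DHO 5 was the highest of the 15 libraries. Ccna2 (chr3:36564865-36573038), cyclin A2, acts from S phase to early mitosis. Its levels were 21.3, 18.3, 24.5, 19.3 and 15.0 FPKM in the WT libraries, 2.16, 1.14, 3.13, 1.68 and 3.38 in HO, and 15.6, 14.4, 18.1, 17.8 and 24.7 in DHO. The HO mean, 2.30 ± 0.95 FPKM (SD, n = 5), was 11.7% of the WT mean of 19.7 ± 3.52, and the change of -2.68 was second to that of Cdca3 among the genes tested. The other 3 members, Ccnb2 (cyclin B2), Ccnf (cyclin F) and Cks2, a small CDK-binding subunit, had HO means at 11.8%, 15.8% and 25.2% of WT. The changes in DHO against WT of these 6 genes lay between -0.18 and 0.03.

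Foxm1 (chr6:128362994-128375886) codes for a forkhead factor that drives transcription of many G2 and mitosis genes. It was at 2.48, 2.19, 3.76, 2.97 and 1.61 FPKM in the WT libraries, 0.522, 0.239, 0.655, 0.394 and 0.568 in HO, and 2.12, 2.42, 2.06, 1.65 and 3.77 in DHO. No HO library reached 1 FPKM, and no library of the other groups fell below it. Foxm1 fell by 1.27 in HO (SE 0.17, limma adjusted p = 3.57e-05) and rose by 1.18 in DHO against HO.

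**Figure D2:**
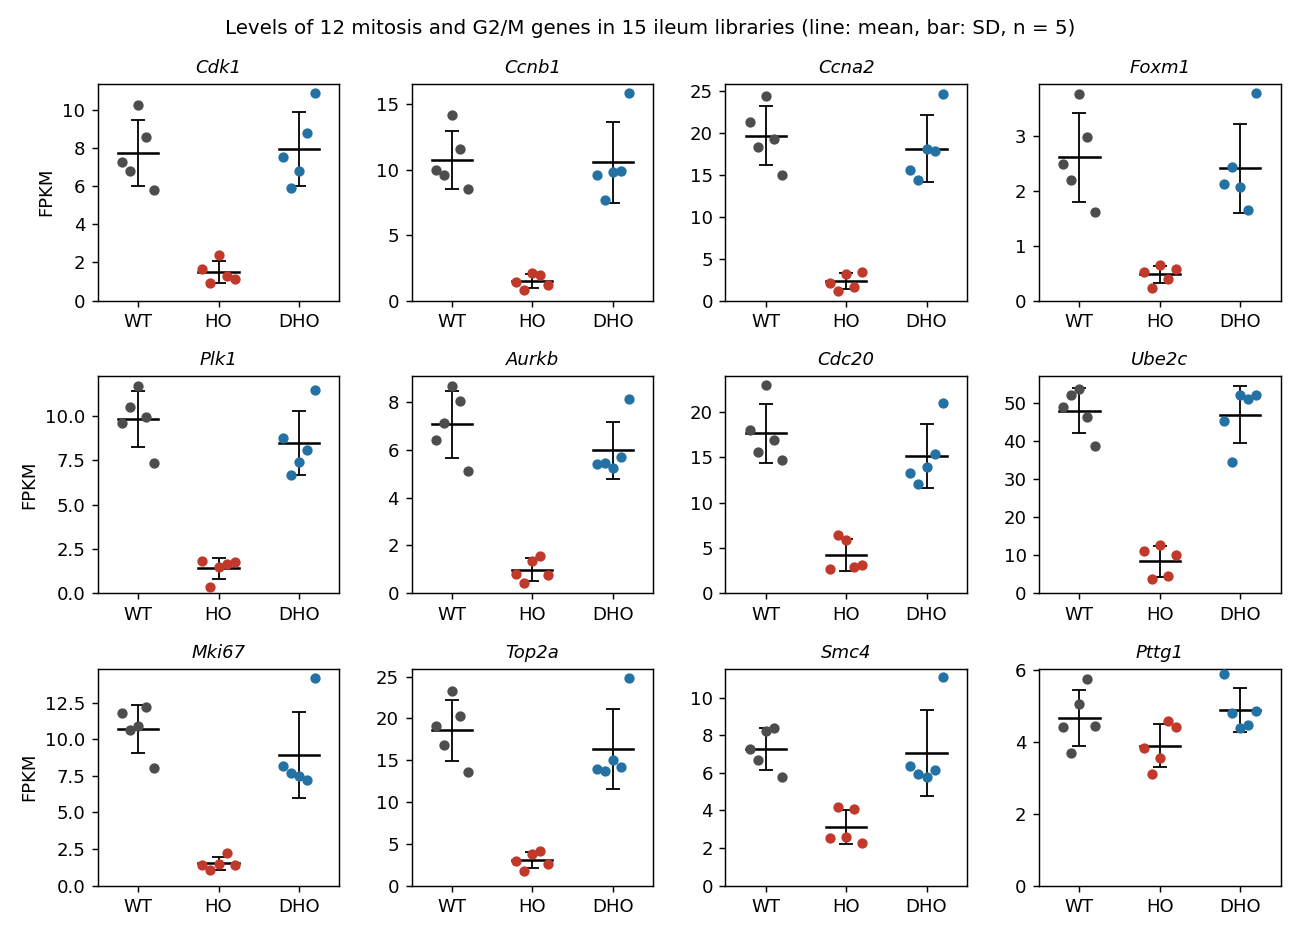
FPKM of 12 of the genes in each of the 15 libraries, by group, with the mean (line) and SD (bar, n = 5 libraries); every axis starts at 0. HO lies below WT and DHO in 11 of the 12 panels, for example Ube2c with means of 47.9 FPKM in WT and 8.40 in HO, and Pttg1 is the panel where HO and WT overlap.

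Among the mitotic kinases and checkpoint genes, 6 of 6 fell in HO, with a median change of -1.67. Plk1 (chr7:122159435-122169884), Polo-like kinase 1, which acts at centrosomes, kinetochores and the cleavage furrow, had 9.60, 10.5, 11.7, 9.95 and 7.35 FPKM in the WT libraries, 1.82, 0.368, 1.49, 1.63 and 1.75 in HO, and 8.74, 6.69, 7.41, 8.10 and 11.4 in DHO. HO 2 lay well below the other HO libraries, which were close together. The fall was 2.20 on the log2 scale (SE 0.19, limma adjusted p = 1.35e-06). Bub1b (chr2:118598202-118641592), the checkpoint protein BUBR1, had 3.76, 3.96, 7.54, 5.26 and 3.34 FPKM in the WT libraries, 0.789, 0.740, 0.810, 1.58 and 0.550 in HO, and 3.39, 3.96, 3.42, 3.67 and 6.60 in DHO. Here HO 4 was the high HO library, and its 1.58 FPKM was still below the lowest WT value. The change was -1.59 (SE 0.20). Aurka (Aurora A, of the spindle poles), Bub1 and Mad2l1 (MAD2), both checkpoint proteins, and Ttk, the checkpoint kinase MPS1, changed by -1.75, -1.39, -1.83 and -1.22. Ttk had only 4 to 42 reads per HO library, and its HO mean was 9.72% of WT. In limma-voom on recovered reads, where 1 FPKM is not added, its change was -3.57, the largest of the 49, while on the FPKM + 1 scale the change of a gene this low is understated.

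The chromosomal passenger complex corrects faulty attachments of chromosomes to the spindle and is needed for cytokinesis. All 4 of its genes fell in HO. Aurkb (chr11:69045624-69051664), its kinase Aurora B, had 6.42, 7.12, 8.69, 8.07 and 5.13 FPKM in the WT libraries, 0.794, 0.409, 1.35, 1.58 and 0.779 in HO, and 5.40, 5.46, 5.25, 5.71 and 8.13 in DHO. The first 4 DHO libraries were close together, and DHO 5 was higher. Aurkb changed by -2.04 in HO (SE 0.17, limma adjusted p = 1.09e-06). Birc5 (survivin), Incenp (INCENP) and Cdca8 (borealin), which place the kinase, changed by -1.97, -1.61 and -1.60.

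The anaphase genes held both the largest and the smallest changes. Cdc20 (chr4:118432901-118437343), the activator of the anaphase-promoting complex, had 18.1, 15.6, 22.9, 16.9 and 14.7 FPKM in the WT libraries, 2.65, 6.40, 5.88, 2.90 and 3.15 in HO, and 13.2, 12.1, 14.0, 15.4 and 21.0 in DHO. HO 2 and HO 3 were above the other HO libraries and still under all WT and DHO libraries. Cdc20 changed by -1.89 (SE 0.21, limma adjusted p = 7.26e-06). Ube2c (chr2:164769929-164772902), the ubiquitin-conjugating enzyme UBCH10 that works with that complex, had the highest level of the 50 genes in WT. It was at 49.0, 52.1, 53.6, 46.1 and 38.7 FPKM in the WT libraries, 11.0, 3.77, 12.7, 4.40 and 10.1 in HO, and 45.1, 34.3, 52.1, 50.8 and 51.9 in DHO. The HO libraries split, with HO 2 and HO 4 lower than the other 3, and the change was -2.50 (SE 0.26, limma adjusted p = 4.41e-06). Cdca3 (chr6:124829530-124833701), also called TOME-1, takes part in destroying the mitotic inhibitor WEE1. It had 15.2, 17.7, 20.03, 16.0 and 11.3 FPKM in the WT libraries, 1.74, 0.687, 2.21, 1.02 and 2.50 in HO, and 15.1, 9.88, 12.2, 13.4 and 16.6 in DHO. Its HO mean was 10.2% of WT, and the change of -2.73 (SE 0.20, limma adjusted p = 4.56e-07) was the largest of the 49. Espl1, separase, which cuts the cohesin that holds sister chromatids, was not tested; its means were 1.00 ± 0.169 FPKM in the WT libraries, 0.210 ± 0.0736 in HO, and 0.799 ± 0.268 in DHO (SD, n = 5), and no HO library reached the lowest WT or DHO value.

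Pttg1 (chr11:43420244-43427463), securin, the inhibitor of separase, did not pass the test. Its levels were 4.42, 3.68, 5.05, 5.73 and 4.43 FPKM in the WT libraries, 3.83, 3.11, 3.55, 4.57 and 4.40 in HO, and 5.89, 4.81, 4.39, 4.45 and 4.85 in DHO. The HO and WT ranges overlapped, and the HO mean was 83.4% of WT, where the next highest share among the 50 genes was 43.1%, in Smc4. Its change in HO against WT was -0.21 (95% interval -0.46 to 0.04, limma adjusted p = 0.137), close to the -0.25 of all genes, and it was 0.049 after scaling by median-of-ratios factors and 0.022 after quantile normalization. In DHO against HO it was 0.27 (95% interval 0.02 to 0.52, limma adjusted p = 0.0614), and it was called when HO 4 or HO 5 was left out (0.32, adjusted p = 0.0407, and 0.31, adjusted p = 0.0424). It had 350 to 518 reads in each HO library. That Pttg1 differs in its change from the other 48 was read from these values and was not tested.

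**Figure D3:**
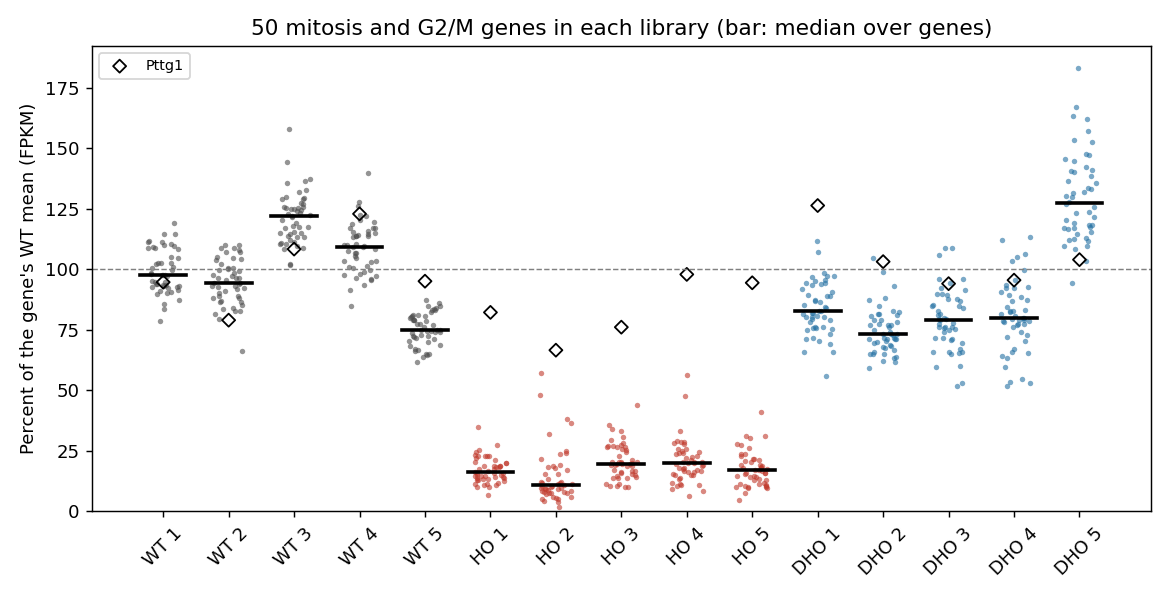
Level of each of the 50 genes in each library as percent of that gene's WT mean; dots are genes, the black bar is the median of the 50 and the open diamond is Pttg1. The medians lie between 10.8% and 19.9% in HO, between 74.9% and 122% in WT and between 73.2% and 127% in DHO, and the Pttg1 diamond is the highest point of every HO column, at 66.6% to 97.9%.

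The 7 kinetochore and centromere genes all fell in HO, with a median change of -1.62. Cenpe (chr3:135212563-135273540), the kinesin CENP-E that carries chromosomes to the spindle equator, had 2.11, 2.18, 2.30, 2.23 and 1.62 FPKM in the WT libraries, 0.301, 0.374, 0.221, 0.540 and 0.330 in HO, and 1.17, 1.36, 1.37, 1.11 and 2.83 in DHO. The first 4 DHO libraries lay below all WT libraries and DHO 5 lay above them. The change in HO was -1.19 (SE 0.14, limma adjusted p = 1.56e-05), and that in DHO against WT, -0.30, was the lowest of the 49. Cenpf, a kinetochore protein that peaks in G2 and mitosis, had the lowest HO share of all, 9.03% of WT, and also the lowest DHO share, 71.3%. Cenpa, the centromeric histone H3 variant, changed by -2.07 in HO. The NDC80 complex, which grips the microtubule ends, was represented by Ndc80, Nuf2, Spc24 and Spc25, whose changes were -1.47, -1.63, -2.19 and -1.62.

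All 8 kinesins and spindle proteins fell in HO, with a median of -1.61. Kif11 (chr19:37376382-37421863), the kinesin EG5 that pushes the spindle poles apart, had 5.67, 5.02, 7.34, 7.03 and 3.75 FPKM in the WT libraries, 0.905, 0.593, 0.661, 0.965 and 0.590 in HO, and 4.50, 4.43, 4.70, 4.69 and 9.41 in DHO. The HO values were tightly grouped under 1 FPKM, and in DHO 4 libraries were nearly equal and DHO 5 stood far above them. The change in HO was -1.93 (SE 0.19, limma adjusted p = 2.94e-06). Kif15, a second spindle-pole motor, Kif22 and Kif4, which bind chromosome arms, and Kif2c, which takes microtubules apart, had HO means at 11.5%, 15.7%, 20.9% and 16.2% of WT. Tpx2, an activator of Aurora A, Nusap1, a microtubule bundling protein, and Hmmr, a spindle assembly factor, were at 16.0%, 17.1% and 14.6%.

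Cytokinesis genes fell in HO in 6 of 6 cases, with a median of -1.65. Prc1 (chr7:80294445-80316259), which bundles the microtubules of the central spindle, had 6.30, 6.50, 8.08, 7.57 and 4.80 FPKM in the WT libraries, 1.51, 0.483, 1.62, 0.726 and 1.21 in HO, and 4.87, 5.35, 5.58, 5.24 and 7.30 in DHO. HO 2 and HO 4 were the lowest libraries, as for Ube2c. Prc1 changed by -1.88 (SE 0.17, limma adjusted p = 1.5e-06). Anln (chr9:22331214-22389211), anillin of the contractile ring, had 1.48, 1.34, 1.98, 1.90 and 1.32 FPKM in the WT libraries, 0.300, 0.515, 0.706, 0.415 and 0.487 in HO, and 1.29, 1.24, 1.14, 1.27 and 2.04 in DHO. Its change of -0.81 (SE 0.12, limma adjusted p = 6.63e-05) was the smallest among the genes called. Its HO mean was 30.2% of WT, a lower share than in Ncapg (32.0%) and Smc4 (43.1%), whose changes on this scale were larger. On the FPKM + 1 scale the change of a gene as low as Anln is understated. Kif23 and Racgap1, the pair that forms centralspindlin, changed by -1.79 and -2.13, and Kif20a (MKLP2) and Ect2, the exchange factor that activates RHOA at the furrow, by -1.48 and -1.50.

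Of the chromosome genes, 7 of 7 fell in HO, with a median of -1.59. Mki67 (chr7:135689784-135716450), the Ki-67 protein that coats mitotic chromosomes and marks cycling cells, had 11.8, 10.6, 10.9, 12.2 and 8.04 FPKM in the WT libraries, 1.44, 1.05, 1.48, 2.20 and 1.41 in HO, and 8.14, 7.67, 7.46, 7.21 and 14.2 in DHO. The HO range was narrow and far below the rest, and 3 DHO libraries lay under the lowest WT library while DHO 5 lay above the highest. The change in HO was -2.22 (SE 0.17, limma adjusted p = 6.32e-07). Top2a (chr11:98992947-99024199), topoisomerase II alpha, which untangles sister chromatids, had 19.0, 16.8, 23.3, 20.3 and 13.5 FPKM in the WT libraries, 2.97, 1.75, 3.81, 4.12 and 2.63 in HO, and 14.0, 13.8, 15.1, 14.1 and 24.8 in DHO. DHO 5 was again the highest of the 15, and Top2a changed by -2.28 in HO (SE 0.19).

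The condensin subunits compact chromosomes for mitosis. Smc4 (chr3:69004738-69034623), a core ATPase of both condensins, had 7.26, 6.67, 8.24, 8.41 and 5.76 FPKM in the WT libraries, 2.54, 4.16, 2.59, 4.09 and 2.28 in HO, and 6.35, 5.94, 5.79, 6.13 and 11.1 in DHO. HO 2 and HO 4 were the high HO libraries. The change was -1.02 (SE 0.18, limma adjusted p = 0.000269), and without HO 2, HO 4 and DHO 1 it was -1.24. Ncapg, a regulatory subunit of condensin I, had HO 2 and HO 4 at 1.75 and 1.74 FPKM against 0.481, 1.25 and 0.609 in the other HO libraries. It changed by -1.14 with all libraries and by -1.40 without those 3. Smc2, the partner ATPase of Smc4, Ncapd2 and Ncaph had HO means at 22.5%, 17.9% and 17.8% of WT.

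HO 2 and HO 4 were both above the other 3 HO libraries in 4 of the 50 genes (8%), Cenpe, Ncapg, Smc2 and Smc4, against 14.5% of all genes tested. Both were below the other 3 in 11 (22%), against 15.6% of all genes tested. These were Ccna2, Ccnb2, Aurka, Birc5, Cenpa, Prc1, Ube2c, Cdca3, Cdca8, Cks2 and Foxm1, and whether the members' shares differ from those of all genes was not tested. HO 2 and HO 4 are 2 of the 3 libraries with B cell transcripts. The summed level of 10 B cell markers reached 59.2 FPKM in HO 2, 66.5 in DHO 1 and 139 in HO 4, against 3.97 to 9.94 in the other 12 libraries. The part of these cells in the members' levels was not tested. Without HO 2, HO 4 and DHO 1 the counts were again 48 lower in HO against WT, 48 higher in DHO against HO and 0 in DHO against WT. They were the same without HO 1, DHO 3 and DHO 4, and without all 6.

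Some markers of the crypt and of the muscle wall also differed between HO and WT. The summed level of the crypt stem markers was 99.2 to 278 FPKM in the WT libraries, 27.5 to 56.9 in HO, and 122 to 249 in DHO. Of these markers 6 of 9 tested fell in HO, where 42.9% of all genes tested were called lower. Olfm4, a crypt base marker, went from 120 ± 64.3 FPKM in WT to 2.60 ± 2.72 in HO (SD, n = 5). It made up much of the sum in WT, as the mean of the sum was 190 FPKM in WT and 44.4 in HO. Smoc2 and Axin2 were not called, at 11.8 and 16.8 FPKM in WT and 14.6 and 13.7 in HO. The summed smooth muscle markers were 149 to 1071 FPKM in the WT libraries, 368 to 1658 in HO, and 396 to 1229 in DHO. These ranges overlapped. In HO against WT 4 of 8 were higher, where 1406 of 11332 genes tested were called higher. Des, Actg2 and Tagln, higher in HO against WT, were not called in DHO against HO (limma adjusted p = 0.0847, 0.360 and 0.273). Of 11 general epithelial markers 4 fell and 1 rose in HO, with a median of -0.23, where 42.9% of all genes tested were called lower. Under median-of-ratios scaling 4 fell and 4 rose, with a median of 0.090, where 23.3% of all genes were called lower. Epcam was at 1528 to 1786 FPKM in WT and 1169 to 1581 in HO. The part of fewer crypt cells or of more muscle in the members' changes was not tested.

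In DHO against WT none of the 49 genes passed limma's test. At an unadjusted p under 0.05 there was 1 gene, Cenpf (-0.29, adjusted p = 0.669), and limma-voom on recovered reads had 2, Cenpf and Cenpe, and none after adjustment. The changes were small and leaned downward: 45 of 49 were below 0, from -0.30 in Cenpe to 0.10 in Ncapg, and the 95% intervals of single genes reached from -0.69 to 0.51. The DHO mean was at a median of 88.5% of the WT mean over the 50 genes, between 71.3% in Cenpf and 111% in Ncapg. DHO 5 was the highest DHO library in 47 of 50 genes and the highest of all 15 in 32, and its median was 127% of the WT mean, while DHO 1 to DHO 4 had medians of 82.8%, 73.2%, 79.2% and 80.0%. In 40 genes all of DHO 1 to DHO 4 were below the WT mean. Without DHO 5 the median change was -0.25, with 48 of 49 below 0 and none called. WT spread as widely, with medians of 97.7%, 94.3%, 122%, 109% and 74.9% from WT 1 to WT 5. WT 5 was the lowest WT library in 48 genes and WT 3 the highest in 37. How many of all genes tested share these orders of libraries was not counted. The median-of-ratios factor, a measure of the whole table, was 1.19 in DHO 5 and 0.99 to 1.11 in DHO 1 to DHO 4. In WT it was 1.04 in WT 5 and 1.12 in WT 3, within the 1.02 to 1.18 of the WT libraries. The summed crypt stem markers were 99.2 FPKM in WT 5, the lowest of WT, and 249 in DHO 5, the highest of DHO. DHO 1 had the lowest sum of DHO, at 122 FPKM, and yet the highest member median of DHO 1 to DHO 4. The part of crypt cells in this spread was not tested.

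Other cell cycle lists, also chosen with earlier results of these data known, were set beside the 50 genes. Of 54 further mitosis genes tested, 54 fell in HO, with a median of -1.10; Melk, a mitotic kinase, fell by 2.07, and Cdca5 (sororin), which guards sister chromatid cohesion, by 1.54. All 35 DNA replication genes tested fell as well, with a median of -1.03, and Tk1, the thymidine kinase of S phase, went from 9.68 ± 1.90 to 1.13 ± 0.483 FPKM (SD, n = 5, limma adjusted p = 8.63e-07). In DHO against HO 53 of the 54 and 35 of the 35 rose. Of all genes tested, 42.9% were called lower in HO against WT and 42.8% higher in DHO against HO. Under median-of-ratios scaling the counts in HO were 49 of 54 and 34 of 35, where 23.3% of all genes were called lower.

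Genes of the anaphase-promoting complex and of transcription complexes were also measured. Of the 15 core subunits of the anaphase-promoting complex, 11 fell in HO, with a median of -0.41. The count was 5 under median-of-ratios scaling, with a median of -0.19. Beside these counts and the next, 42.9% of all genes tested were called lower, and 23.3% under that scaling. Anapc13 changed by -1.05, and Anapc16 and Anapc2 were not called, at -0.18 and -0.26. Of 16 genes of a list of MuvB, MYB, E2F partner and NF-Y genes, 12 fell, and 6 did under that scaling. Myb went from 8.25 ± 1.43 to 0.541 ± 0.35 FPKM (SD, n = 5; change -2.60, limma adjusted p = 2.16e-07) and was at 6.58 ± 1.55 in DHO. Mybl2, a different gene, which codes for B-MYB, fell by 0.82. Among the MuvB core subunits, Lin9 fell by 0.68 (limma adjusted p = 0.000182), while Lin52 and Lin54 were not called, at -0.07 and -0.18.

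At the entry to the cycle, 9 of 14 genes of the G1 list fell in HO, where 42.9% of all genes tested were called lower. Among the 9 were E2f8 (-1.76), Cdk4 (-1.30), Ccnd1 (-1.13) and Ccne1 (-0.98). E2f3 and Myc were not called, at 0.08 and 0.18. Of 7 CDK inhibitors, 1 rose and 3 fell, or 2 and 2 under median-of-ratios scaling; the 3 of 7 that fell are close to the 42.9% of all genes tested that were called lower. Cdkn1a, p21, which blocks CDKs in stressed cells, was the gene that rose. It was at 195, 206, 198, 174 and 192 FPKM in the WT libraries, 270.0, 410.2, 387, 386 and 320.1 in HO, and 215, 181, 192, 190.3 and 165 in DHO. Every HO library was above every library of the other groups, and the change was 0.86 (SE 0.11, limma adjusted p = 3.30e-05), or 1.18 under median-of-ratios scaling. Cdkn2b (p15) and Cdkn2c (p18), inhibitors of CDK4 and CDK6, fell by 1.11 and 0.88.

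**Figure D4:**
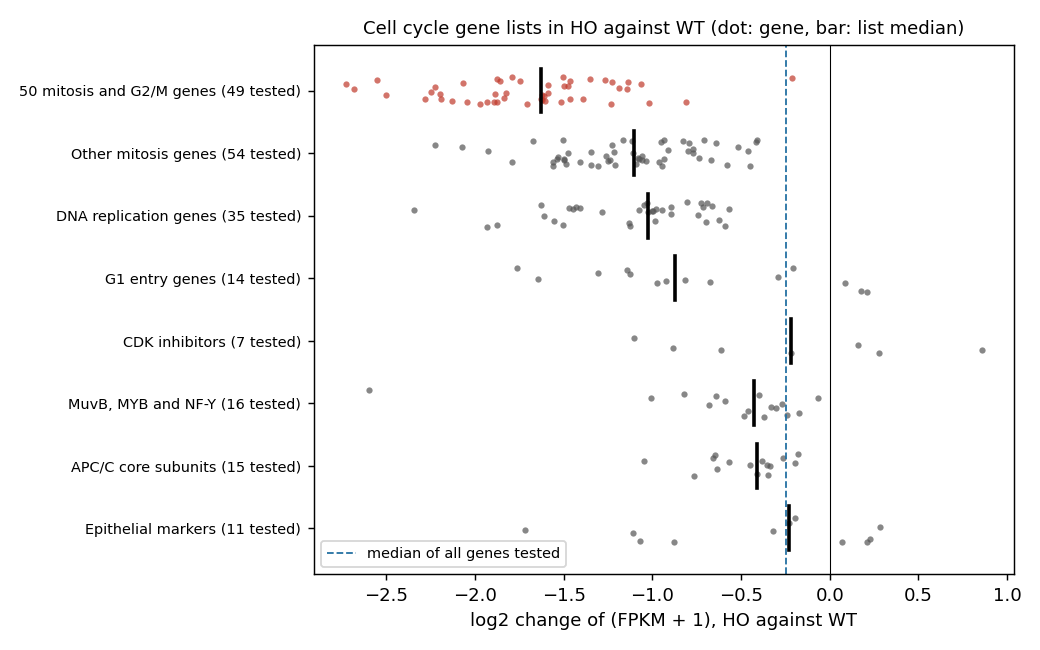
Log2 change of FPKM + 1 in HO against WT for the genes tested of the members' list (red) and of 7 other lists (grey); each dot is a gene, the black bar is the list's median, and the dashed line is the median of all genes tested, -0.25. The members' median is -1.63, the DNA replication list is at -1.03, the other mitosis genes are at -1.10, and the CDK inhibitors hold the gene at 0.86, Cdkn1a.

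The promoter windows of the members shared the letters shown at the start. TTTGAA, searched on both strands, was in 34 of 44 windows (77.3%), against 17.9% of 32851 windows of all genes in the table of promoters. It was in 12.0% of the windows of genes tested that are not members, 48.3% of those of the further mitosis genes and 16.7% of those of the replication genes. CCAAT was in 77.3% of the members' windows against 37.4% of all, 63.3% for the further mitosis genes and 55.6% for the replication genes. Both were in 68.2% against 6.95% of all, 30.0% for the further mitosis genes and 8.33% for the replication genes. TTTAAA was in 20.5% against 13.2%. A match of TTTGAA can share an end letter with a match of CCAAT.

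The TTTGAA matches of the members lay near the start, at a median position of -15 counted from the start, against -124 over all windows, and CCAAT lay at -68 against -92. Among the genes tested, the 31 with TTTGAA had a median change in HO of -1.62, and the 10 without it had -1.73. The latter were Ccnb1, Bub1, Birc5, Cenpe, Nusap1, Ncaph, Nuf2, Mad2l1, Pttg1 and Cks2. A match is a run of letters and not a known site. Of the 44 annotated starts, 23 lay at the 5′ end of the gene. That of Pttg1 lay 1482 bases inside the gene, and that of Kif2c 3852 bases. Those of Cdca3 (646), Ncapd2 (514), Ect2 (375 and 399) and Aurka (316) also lay well inside. The letters of these windows are not those before the gene's first base. In 37 of the 44 windows the last bases were found near the start of a transcript of the GENCODE annotation.

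**Figure D5:**
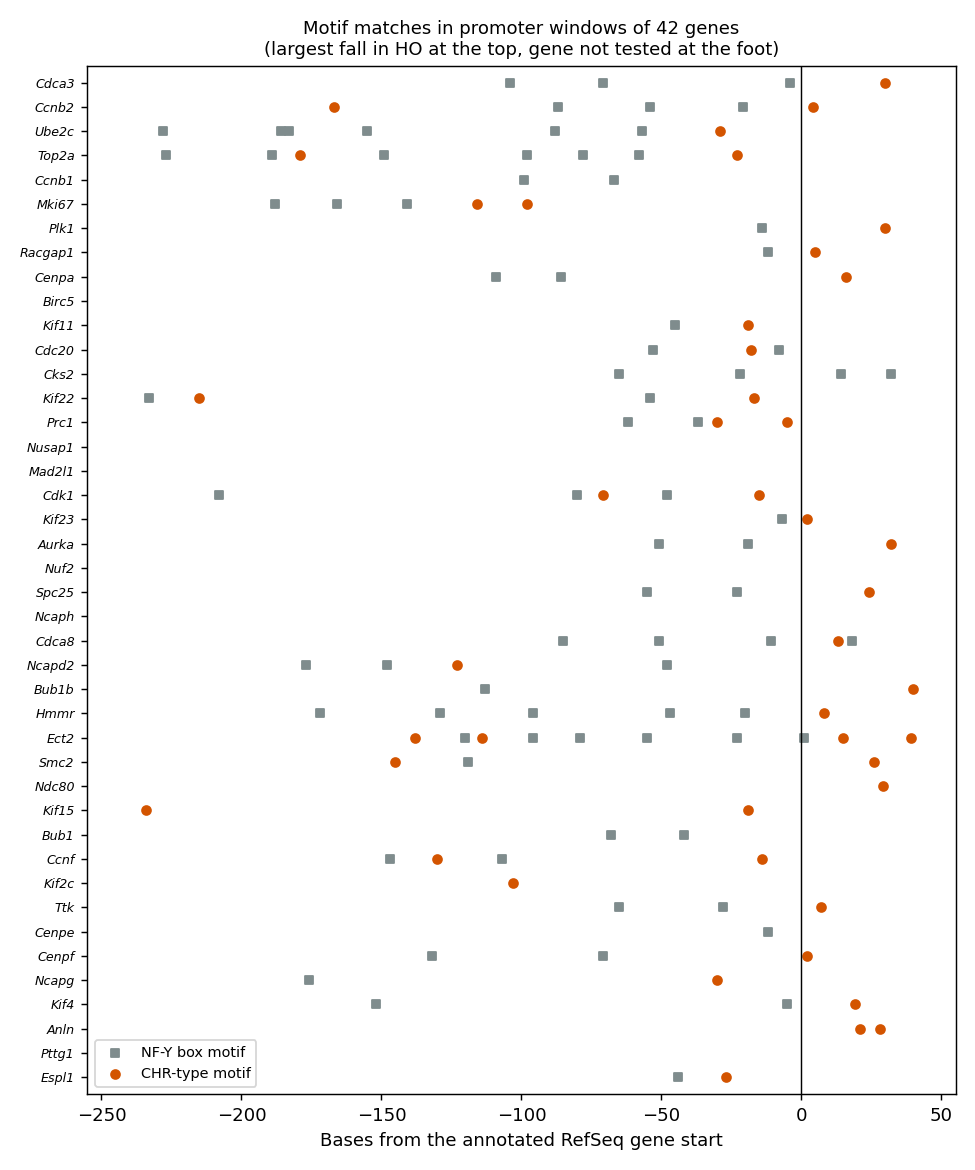
Positions of CHR-type motifs (TTTGAA, orange) and NF-Y boxes (CCAAT, grey) in the promoter windows of 42 genes, in bases from the annotated start. TTTAAA matches, such as that of Ccnb1 at -42, are not drawn. Genes are ordered by their change in HO against WT, with Espl1, which was not tested, at the foot. TTTGAA matches gather around the start, with a median of -15, and occur from the top to the foot of the order.

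Some members share exonic bases with a neighbour, and the strand setting of the counts is not given in the sources used here. The share of the member's exonic bases was 29.3% for Kif20a with Cdc23, 22.8% for Ube2c with Tnnc2, 15.1% for Kif4 with Pdzd11, 13.4% for Ncapg with Lcorl, 12.5% for Ccna2 with Exosc9 and 11.1% for Prc1 with Rccd1. It was under 5% for Cdca8, Nusap1, Cdc20 and Foxm1. Only the neighbour of Foxm1, Tex52, was on the same strand, and reads in those bases cannot be told apart between the genes. For the other members this holds if the counts did not use the strand, and their levels carry that limit.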

How the data were processed

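Whole mouse ileum was sequenced as bulk RNA in 15 libraries, 5 per genotype, at 3 days post induction; per the labels' protocols, RNA was extracted with TRIzol and libraries made with a VAHTS Universal V6 kit. Reads were handled with fastp, HISAT2 and HTSeq on mm10, per the submitters' processing notes, which name no versions. The deposited values were taken as FPKM from the values themselves: whole reads, within 0.02 of a read, were recovered for 24836 of 24836 genes with a value above 0 (100%), at 38724618 to 40589889 reads per library.

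The 11332 genes at 1 FPKM or more in 5 or more libraries were tested: log2(FPKM + 1) was fitted with limma 3.58.1 (R 4.3.3; trend, robust, group means over 15 libraries), and p-values were adjusted by Benjamini-Hochberg over all genes tested, with a threshold of 0.05. A change on this scale understates that of a low gene. A member that passed the filter through WT and DHO alone had to be higher there: 16 members that passed it were under 1 FPKM in every HO library. The deposited table was also tested by limma-voom on the recovered reads. Alternatives covered the filter, pseudocount, scaling, test, libraries fitted and threshold, and each library was left out in turn; leaving out 6 libraries at once was added after seeing the data. The test was also run on simulated data, with a set of genes changed in HO by known folds in both directions. That setting had no shift of the whole table and no libraries that stand apart, so it cannot check the test under those. Groups come from the genotype labels, and replicate numbers follow accession order. The members, roles and other lists were chosen with earlier results of these data known.

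Values in every library were given for at least 1 fixed gene of each role, for the genes with the largest and smallest changes in HO against WT, and for those not called. From each other list, up to 3 genes with the smallest p and up to 2 not called were named, with Cdkn1a, Ccnd1, Mybl2 and marker genes. Gene coordinates and promoters are from RefSeq, GRCm38.p6. Motif positions give the first base, counted from the start.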

Additional observations from a re-analysis of the deposited data

Results flagged for a closer look

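In 12 of 54 groups (18 genes with values in every library, 3 genotypes) 1 library lay apart from the other 4 by Dixon's gap test at the 95% level, where chance gives about 1 in 20. DHO 5 was the high library in 9 of them. Its values were 15.8 FPKM for Ccnb1 against 7.67 to 9.91 in the other DHO libraries, 8.13 for Aurkb against 5.25 to 5.71, 6.60 for Bub1b against 3.39 to 3.96, and 14.2 for Mki67 against 7.21 to 8.14. They were 24.8 for Top2a against 13.8 to 15.1, 2.83 for Cenpe against 1.11 to 1.37, and 9.41 for Kif11 against 4.43 to 4.70. Smc4 was at 11.1 against 5.79 to 6.35, and Anln at 2.04 against 1.14 to 1.29. Because these genes moved together in the same library, the 9 are not separate events. The other 3 lay in HO and WT: Plk1 was low in HO 2, at 0.368 FPKM against 1.49 to 1.82, Bub1b was high in HO 4, at 1.58 against 0.550 to 0.810, and Cenpe was low in WT 5, at 1.62 against 2.11 to 2.30. Their causes were not tested.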

How the results depend on the processing

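The count of members called in HO against WT was 48 in each run that left out a library, and between 47 and 49 under the alternatives of filter, pseudocount, scaling, test, libraries and threshold, following whether Espl1 and Cenpf were tested. In DHO against HO it was 48 to 49 with a library left out, and in DHO against WT it was 0 throughout. The members' median in HO against WT was -1.48 under median-of-ratios scaling, -1.43 under quantile normalization and -2.61 in limma-voom on recovered reads. Pttg1 in HO against WT changed sign, to 0.049 under median-of-ratios scaling, 0.022 under quantile normalization and 0.055 in limma-voom with those factors; the cause was not tested. Over all genes, 77.6% of the calls in HO against WT were lower, 48.5% under median-of-ratios scaling and 55.7% under quantile normalization, and in DHO against HO 23.8%, 51.2% and 44.0% were lower. Genes called in DHO against WT were 27, and 13 under median-of-ratios scaling, 11 in limma-voom with those factors, 186 with the 2 groups alone, 51 without HO 1, DHO 3 and DHO 4, 43 without HO 2, HO 4 and DHO 1, 15 without all 6, 7 at an adjusted p under 0.01, and 7 to 80 with a library left out. In DHO against HO, 6359 genes were called and 4003 without all 6 libraries. No paired analysis was possible because the labels give no replicate numbers that groups share. Members had 4 to 1228 reads in an HO library, so ratios for the lowest, such as Ttk, are imprecise.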
